A study of Mus musculus with 10 samples.

Results

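Brown fat miR-193b, miR-193a and miR-365 were followed in small extracellular vesicles of mouse brown fat and plasma as 5 mature miRNAs, chosen by name: miR-193b-3p, miR-193b-5p, miR-193a-3p, miR-193a-5p and miR-365-3p. They are 5 of the 721 miRNAs listed in either deposited table, and both tables list all 5. The vesicles came from C57BL/6J mice and made up 4 groups, Exe BAT (brown adipose tissue, 3 libraries), Sed BAT (3), Exe plasma (2) and Sed plasma (2). Exe and Sed are read here as mice with and without exercise training, although the labels give 90 min sessions, 2 per day for 4 weeks, to every sample, Sed included. The labels do not say whether a library is 1 animal or a pool, nor whether the replicates come from different animals. The p-values therefore reflect library-to-library spread alone, possibly only technical spread. A vesicle library gives the share of a miRNA among the miRNA reads, so fewer vesicles of one cell type and less of the miRNA per vesicle cannot be told apart.

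A miRNA hairpin is cut into a 5p and a 3p arm, of which usually 1 is kept in the silencing complex and pairs with messenger RNAs through its seed, bases 2 to 8. The miR-193b and miR-365 hairpins lie in 1 cluster that is enriched in brown over white fat. In mouse brown preadipocyte cultures, blocking miR-193b and miR-365 impaired the formation of brown fat cells, and the pair was found to repress Runx1t1, a blocker of fat cell formation. Mice lacking the chromosome 16 cluster were later reported to form brown fat. miR-193a is the paralog of miR-193b.

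The mature sequences are shown because shared seeds decide which of these miRNAs can be read as a pair. They are RefSeq sequences on build GRCm38.p6, written 5′ to 3′ with the seed in capitals, and all 5 members were found in the RefSeq table.
miR-193b-3p: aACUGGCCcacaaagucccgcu
miR-193a-3p: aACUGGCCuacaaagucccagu
miR-365-3p: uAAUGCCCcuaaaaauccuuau
miR-193b-5p: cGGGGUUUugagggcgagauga
miR-193a-5p: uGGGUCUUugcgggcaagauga
miR-365-1-5p: aGGGACUUuugggggcagaugug
miR-365-2-5p: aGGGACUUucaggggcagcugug
The last pair are the 5p arms of the miR-365 hairpins, which were not members and are shown for the arm balance of miR-365. The seed ACUGGCC occurs in 2 mature miRNAs of the RefSeq table, miR-193b-3p and miR-193a-3p. Between these, 19 of 22 bases are identical, and the differences, counted from the 5′ end with the miR-193a base first, are U9C, A20G and G21C, all outside the seed. The 5p arms differ more, at 5 of 22 positions (U1C, U5G, C6U, C11A and A16G from miR-193a-5p to miR-193b-5p), and U5G and C6U lie in the seed, so each 5p arm has a seed of its own. The seed AAUGCCC was found in miR-365-3p alone.

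All hairpins lie on the plus strand. On chromosome 16, miR-193b-3p is at chr16:13449570-13449591, miR-193b-5p at chr16:13449533-13449554 and a first copy of miR-365-3p at chr16:13453895-13453916, with 4238 bases between the Mir193b and Mir365-1 hairpins. Both overlap Gm15738, an antisense gene on the opposite strand. On chromosome 11, miR-193a-3p is at chr11:79712009-79712030, miR-193a-5p at chr11:79711975-79711996 and the other copy of miR-365-3p at chr11:79726467-79726488, with 14365 bases between the Mir193a and Mir365-2 hairpins and no annotated gene overlapping either. The nearest protein-coding genes are Mrtfb, 31994 bases from Mir193b, and Rab11fip4, 13946 bases from Mir193a. Since both miR-365 hairpins give the same 3p arm, its reads cannot be split between the chromosomes.

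The BAT libraries held 104064 to 172279 miRNA reads and the plasma libraries 1209116 to 1798169. In BAT these were a small part of the library totals implied by the authors' RPM. They came to between 0.492% (Sed BAT replicate 2) and 0.904% (Exe BAT replicate 3). A list of 5 other brown fat miRNAs had reads for all 5 in both BAT groups and took 20.8% to 27.2% of reads in Exe BAT and 3.88% to 21.5% in Sed BAT. Sed BAT replicate 2 stood apart through miR-378a-3p, an abundant miRNA from an intron of the coactivator gene Ppargc1b, with 3804 reads against 24801 to 35733 in the other BAT libraries. Results that rest on it are given with and without it. Muscle miRNAs took 2.46% to 3.50% of reads in Exe BAT and 2.90% to 5.50% in Sed BAT, endothelial miRNAs 4.96% to 8.49% and 6.35% to 10.6%, and red cell miRNAs 3.45% to 7.14% and 3.44% to 6.17%.

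In BAT vesicles miR-193b-3p rose in Exe, and so did the minor arm miR-193a-5p. miR-365-3p, made in part from the same cluster as miR-193b-3p, was lower in every Exe library than in every Sed library but did not pass the test. miR-193a-3p, which carries the same seed as miR-193b-3p, had overlapping groups. Thus 2 of 5 members were called higher and 0 lower at an adjusted p under 0.05 in edgeR's quasi-likelihood test. Among all 199 miRNAs tested in BAT, 9.55% were called higher, 13.1% lower and 22.6% in either direction. All 5 members passed the filter on low counts. The 5p members passed it mainly through Exe BAT, with 26 to 37 reads per library for miR-193a-5p and 14 to 21 for miR-193b-5p. In Sed BAT they had 8 to 14 and 2 to 15 reads. The call of miR-193a-5p is therefore that of a member kept mainly through the group where it was high.

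The dominant member was miR-193b-3p, the 3p arm of the chromosome 16 hairpin. It had 2793, 3246 and 3312 reads in the Exe BAT libraries, against 996, 1696 and 1133 in the Sed BAT libraries. On the TMM scale (CPM, reads scaled to 1000000 miRNA reads and corrected for library composition) these were 24421, 21129 and 20932 CPM in Exe BAT, against 6384, 12783 and 10351 CPM in Sed BAT. Every Exe library lay above every Sed library, and the miRNA ranked between 7 and 10 by reads in Exe BAT and between 17 and 29 in Sed BAT. The means were 22161 ± 1960.0 CPM in Exe BAT and 9839 ± 3230.1 CPM in Sed BAT (SD, n = 3 each). The log2 fold change was 1.17 ± 0.29 (adjusted p = 0.0167; ± is the SE), or 2.25-fold.

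The rise of miR-193b-3p missed the threshold with library size alone as the scale (0.99) and without Exe BAT replicate 1 (1.15), Exe BAT replicate 3 (1.33) or Sed BAT replicate 3 (1.21), with adjusted p from 0.000335 to 0.0771 over all alternatives. Without Sed BAT replicate 2, the library low in miR-378a-3p, it was 1.47 (adjusted p = 0.000335). The brown fat list was also highest in an Exe library, but without miR-378a-3p it stood at 1192, 1681 and 1010.0 uncorrected CPM (scaled to 1000000 miRNA reads without TMM) in Exe BAT, against 1009.8, 2268 and 1284 in Sed BAT, and these groups overlapped. In the authors' RPM, scaled to the whole library, miR-193b-3p was at 148, 167 and 174 in Exe BAT, against 48.8, 80.1 and 55.2 in Sed BAT, again with no overlap.

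**Figure D1:**
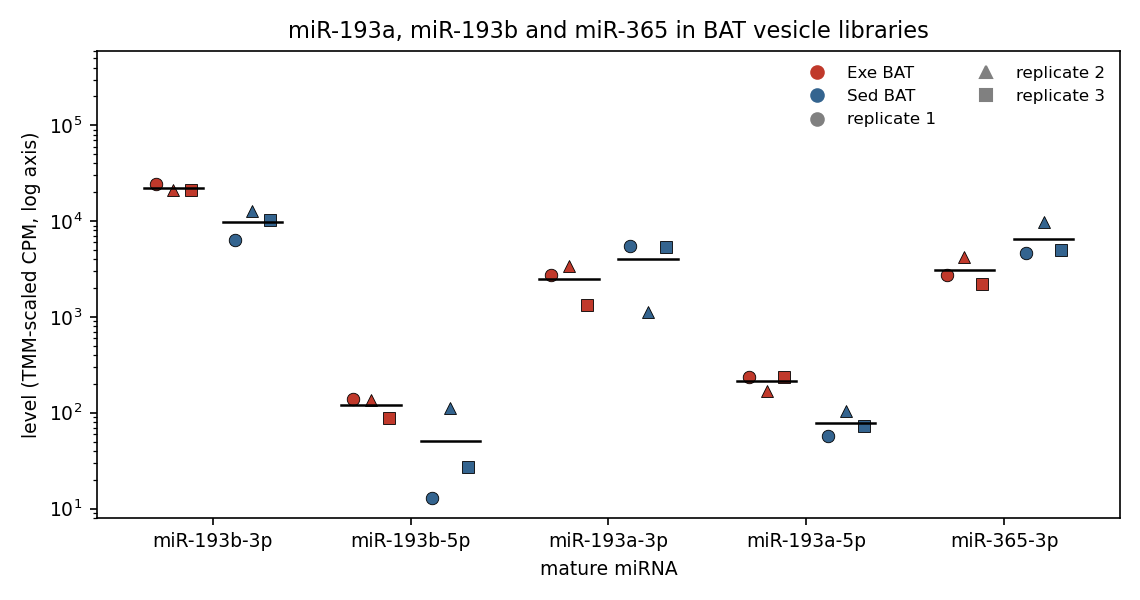
Level of each of the 5 mature miRNAs in each BAT vesicle library, in TMM-scaled CPM on a log axis, with Exe BAT in red left of Sed BAT in blue, marker shapes for the replicates and a bar at the mean of 3 libraries. The groups separate upward for miR-193b-3p (20932 CPM or more in Exe BAT, 12783 or less in Sed BAT) and miR-193a-5p, and downward for miR-365-3p, while miR-193b-5p and miR-193a-3p overlap.

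For miR-193a-3p, the paralog with the same seed, the reads were 311, 523 and 212 in Exe BAT, against 860, 150 and 588 in Sed BAT. The Sed libraries spanned the Exe range, with Sed BAT replicate 2 the lowest of all 6 and the other Sed libraries the highest. Means were 2488 ± 1052 CPM in Exe BAT and 4005 ± 2490.1 CPM in Sed BAT (SD, n = 3 each), and the log2 fold change of -0.69 ± 0.55 did not pass (SE, adjusted p = 0.376). This value turned on the library that stood apart. Without Sed BAT replicate 2, miR-193a-3p was at -1.07 (adjusted p = 0.00906), while over all alternatives it lay between -1.07 and -0.27 with adjusted p up to 0.77.

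The 3p arms of miR-193b and miR-193a together give the share of miRNA reads that carry the ACUGGCC seed. It came to 26625, 23735 and 20455 uncorrected CPM in Exe BAT, against 10959.9, 17739 and 14825.5 in Sed BAT. All Exe libraries were above all Sed libraries. Over all tested miRNAs, 44.2% had groups that did not overlap on the TMM scale. Since miR-193b-3p made up most of the sum in each library, this separation largely repeats that of miR-193b-3p. miR-193b-3p made up 89.98%, 86.1% and 94.0% of this pair in Exe BAT, against 53.7%, 91.9% and 65.8% in Sed BAT, and miR-193a-3p came nearest to its paralog in Sed BAT replicate 1.

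**Figure D2:**
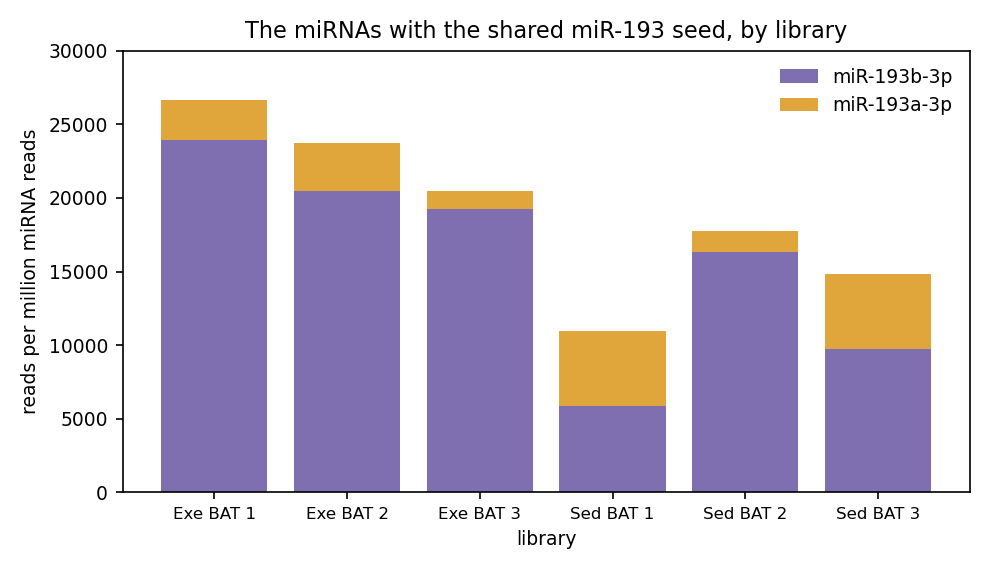
Reads per 1000000 miRNA reads (uncorrected CPM) of miR-193b-3p (purple) and miR-193a-3p (orange, stacked on top), the miRNAs that share the seed ACUGGCC, in each BAT vesicle library. The summed height is 20455 or more in the Exe BAT libraries and 17739 or less in the Sed BAT libraries, and the orange share is large in Sed BAT replicates 1 and 3.

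For miR-365-3p, the shared 3p product of Mir365-1 and Mir365-2, the direction was the other one. It had 316, 653 and 346 reads in Exe BAT, against 726, 1288 and 552 in Sed BAT. This corresponds to 2763, 4251 and 2187 CPM in Exe BAT, against 4653, 9708 and 5043 CPM in Sed BAT. The groups did not overlap on the TMM scale, but in the authors' RPM they did, at 16.7, 33.6 and 18.2 in Exe BAT, against 35.6, 60.9 and 26.9 in Sed BAT. The means were 3067 ± 1065 CPM in Exe BAT and 6468 ± 2812.5 CPM in Sed BAT (SD, n = 3 each). Its log2 fold change was -1.08 ± 0.35 (SE), at an adjusted p of 0.0547 and an unadjusted p of 0.0129.

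The value of miR-365-3p was just outside the threshold and fell on either side of it with the settings. It passed with DESeq2 (-1.05), with no filter on low counts (-1.10), without Exe BAT replicate 2 (-1.37) and without Sed BAT replicate 1 (-1.26), and its adjusted p ranged from 0.00487 to 0.211 over all alternatives. Without Sed BAT replicate 2, which held its highest level, it was -0.60 (adjusted p = 0.0806). The summed muscle miRNAs were also highest in that library, at 5.50% of reads, though their shares overlapped between the groups. Of the 4, miR-1a-3p fell in Exe BAT (-1.47, adjusted p = 0.0107), while miR-133a-3p (0.46), miR-133b-3p (0.71) and miR-206-3p (0.19) were above 0 and not called. Their part in the value of miR-365-3p was not tested.

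The minor arm miR-193a-5p had 27, 26 and 37 reads in Exe BAT, against 9, 14 and 8 in Sed BAT. At 236, 169 and 234 CPM in Exe BAT, against 57.7, 106 and 73.1 CPM in Sed BAT, the groups did not overlap. Its log2 fold change of 1.43 ± 0.34 (SE, adjusted p = 0.0154, 2.69-fold) rests on 90 reads in Exe BAT and 31 in Sed BAT. Without Exe BAT replicate 1 (1.42), Exe BAT replicate 3 (1.47) or Sed BAT replicate 3 (1.42) it missed the threshold, with adjusted p from 0.00147 to 0.0749 over all alternatives.

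The minor arm miR-193b-5p had 16, 21 and 14 reads in Exe BAT, against 2, 15 and 3 in Sed BAT. Here the Sed libraries were low except replicate 2, which lay within the Exe range. At 122 ± 28.8 CPM in Exe BAT and 51.1 ± 54.2 CPM in Sed BAT (SD, n = 3 each), the log2 fold change was 1.24 ± 0.61 and did not pass (SE, adjusted p = 0.161). It passed without Sed BAT replicate 2 (2.68, adjusted p = 0.000644) and with library totals implied by the RPM (1.45), and it lay between 0.74 and 1.63 under all the other alternatives, with adjusted p from 0.0918 to 0.377.

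Read by overlap of the libraries, 2 of the 5 members were higher in every Exe BAT library, 1 was lower in every one and 2 overlapped. Over all tested miRNAs, groups that did not overlap made up 44.2%, of which 21.1% were higher and 23.1% lower. By p, miR-193a-5p and miR-193b-3p ranked 26 and 27 among the 199 tested, and miR-365-3p ranked 46. The median log2 fold change of all tested miRNAs was -0.06.

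**Figure D3:**
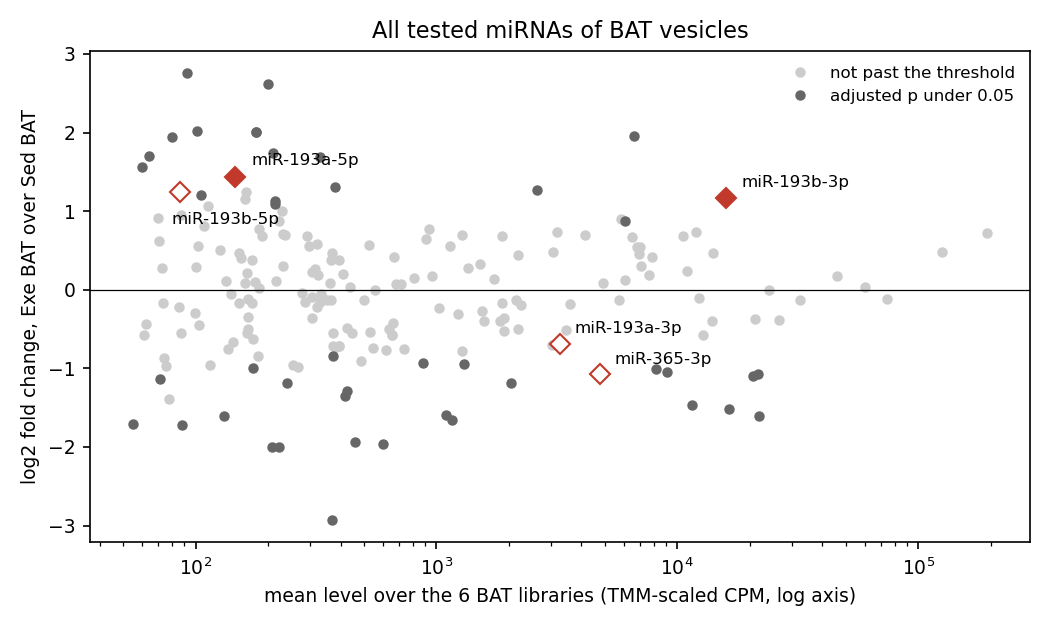
Log2 fold change of Exe BAT over Sed BAT against the mean level over the 6 BAT libraries (TMM-scaled CPM, log axis) for each of the 199 tested miRNAs, dark grey where the adjusted p was under 0.05. Diamonds mark the members, filled where called: miR-193b-3p (1.17) and miR-193a-5p (1.43) are filled above 0, while miR-365-3p (-1.08) and miR-193a-3p (-0.69) are open below 0 and miR-193b-5p (1.24) is open above 0.

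All 5 members are 22 bases long, and their levels are set in order only as a description of reads. How far reads of different miRNAs reflect their amounts was not tested. In Exe BAT the order was miR-193b-3p (20932 to 24421 CPM), miR-365-3p (2187 to 4251), miR-193a-3p (1339.9 to 3404), miR-193a-5p (169 to 236) and miR-193b-5p (88.5 to 139.9). Only the neighbours miR-365-3p and miR-193a-3p overlapped there. In Sed BAT the order of the means was the same, with miR-193b-3p at 6384 to 12783 CPM, miR-365-3p at 4653 to 9708, miR-193a-3p at 1131 to 5512, miR-193a-5p at 57.7 to 106 and miR-193b-5p at 12.8 to 113. The order did not hold within each Sed library. miR-193a-3p lay above miR-365-3p in replicates 1 (5512 against 4653) and 3 (5372 against 5043), and miR-193b-5p above miR-193a-5p in replicate 2 (113 against 106). Over the Sed BAT libraries every pair of neighbours overlapped except miR-193a-3p and miR-193a-5p. The 5 members together took 2.97%, 2.81% and 2.28% of miRNA reads in Exe BAT, against 1.53%, 3.04% and 1.97% in Sed BAT, and these shares overlapped.

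Ratios within a library need no scaling between libraries, and 4 were compared between Exe BAT and Sed BAT. The balance of miR-193b-3p to miR-365-3p separated the groups most clearly. This had to be so, since on the TMM scale their groups separated in opposite directions, as given above. The separation of this ratio is therefore no further support for either difference. There were 8.84, 4.97 and 9.57 reads of miR-193b-3p per read of miR-365-3p in Exe BAT, against 1.37, 1.32 and 2.05 in Sed BAT, so the lowest Exe ratio was above the highest Sed ratio. The mean log2 ratio was 2.90 ± 0.52 in Exe BAT and 0.63 ± 0.35 in Sed BAT (SD, n = 3 each), a difference of 2.27 or 4.84-fold (exact two-sided permutation p = 0.1, adjusted over the 4 ratios 0.4). With 3 libraries against 3 the smallest possible p is 0.1, so no ratio could pass the threshold. The difference lay between 2.10 and 2.57 with any single BAT library left out.

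The arm balance of miR-193a leaned to the 3p arm in every BAT library. The 3p share was 92.0%, 95.3% and 85.1% in Exe BAT, against 98.96%, 91.5% and 98.7% in Sed BAT. The exact 95% interval of Exe BAT replicate 3 (80.1% to 89.3%) lay below those of Sed BAT replicates 1 (98.0% to 99.5%) and 3 (97.4% to 99.4%), while Sed BAT replicate 2 (86.1% to 95.3%) overlapped the Exe libraries. As log2 ratios the means were 3.44 ± 0.90 in Exe BAT and 5.33 ± 1.70 in Sed BAT (SD, n = 3 each), a difference of -1.89 (exact two-sided permutation p = 0.3). Without Sed BAT replicate 2 it was -2.87 (exact two-sided permutation p = 0.2, the smallest possible with 3 libraries against 2).

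The arm balance of miR-193b leaned further to the 3p arm in every BAT library. The 3p arm took 99.4%, 99.4% and 99.6% in Exe BAT, against 99.8%, 99.1% and 99.7% in Sed BAT. The mean log2 ratios were 7.49 ± 0.31 in Exe BAT and 7.92 ± 1.001 in Sed BAT (SD, n = 3 each, difference -0.42, exact two-sided permutation p = 0.5), and the difference was -0.996 without Sed BAT replicate 2 (exact p = 0.2). The log2 ratio of miR-193a-3p to miR-193b-3p was -3.25 ± 0.67 in Exe BAT and -1.55 ± 1.72 in Sed BAT (SD, n = 3 each, difference -1.70, exact two-sided permutation p = 0.3), with overlapping groups. Without Sed BAT replicate 2 this difference was -2.67 (exact two-sided permutation p = 0.2).

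**Figure D4:**
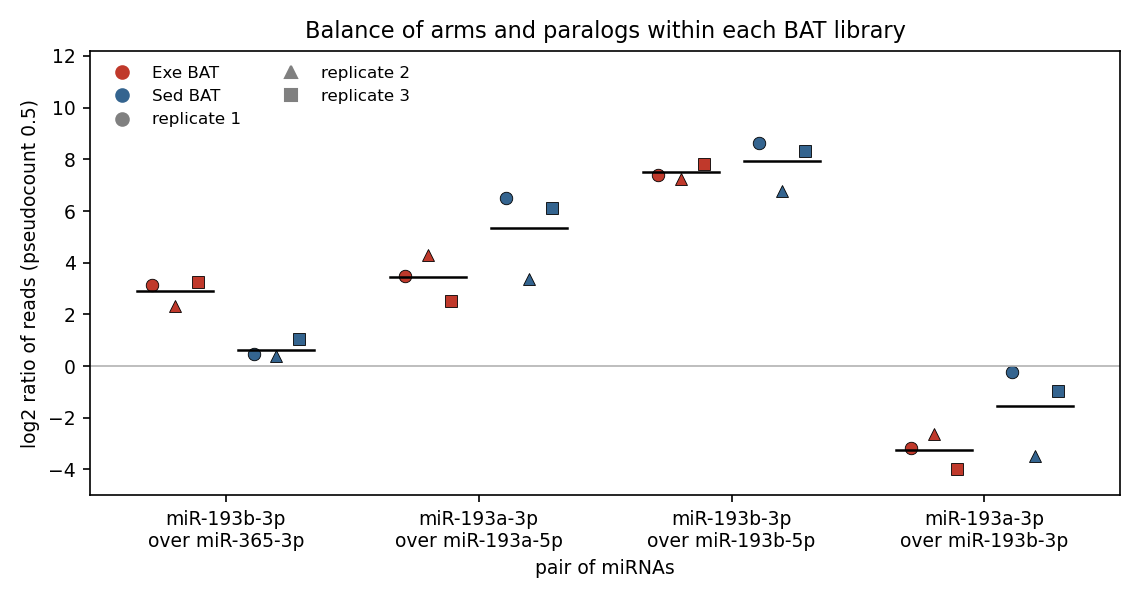
Log2 ratio of reads (pseudocount 0.5) for 4 pairs of miRNAs in each BAT vesicle library, with Exe BAT in red left of Sed BAT in blue, marker shapes for the replicates and bars at the means of 3 libraries. Only the ratio of miR-193b-3p to miR-365-3p has no overlap, with means of 2.90 in Exe BAT and 0.63 in Sed BAT. Its separation follows from the opposite separation of these miRNAs in level. In both miR-193a ratios Sed BAT replicate 2 lies among the Exe libraries.

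The 5p arms of the miR-365 hairpins were looked at after their values were seen, as a description. miR-365-1-5p had 3, 12 and 14 reads in Exe BAT, against 0, 2 and 2 in Sed BAT. miR-365-2-5p had 4, 18 and 17 reads in Exe BAT, against 3, 0 and 4 in Sed BAT. Together they came to 68 reads in Exe BAT and 11 in Sed BAT, while miR-365-3p had 1315 and 2566, so that the 3p share of the miR-365 arms was 97.8%, 95.6% and 91.8% in Exe BAT, against 99.6%, 99.8% and 98.9% in Sed BAT. The shares did not overlap between the groups. Groups also did not overlap in level for 44.2% of all tested miRNAs. The exact interval of Exe BAT replicate 1, with 7 reads of the 5p arms, was 95.6% to 99.1%. It overlapped those of Sed BAT replicates 1 (98.8% to 99.9%) and 3 (97.7% to 99.6%). The intervals of Exe BAT replicates 2 (93.8% to 97.0%) and 3 (88.5% to 94.3%) lay below those of all Sed libraries. Neither 5p arm passed the filter on low counts.

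The miRNAs whose pattern over the 6 BAT libraries was most like that of miR-193b-3p, by the root mean square difference of centred log2 levels, were miR-30c-5p (0.295), miR-328-3p (0.335) and let-7d-3p (0.34), against a median of 0.818 over the 72 miRNAs compared. Of these, miR-328-3p rose in Exe BAT (1.26 ± 0.24, SE, adjusted p = 0.0107), while miR-30c-5p was at 0.90 (adjusted p = 0.0888) and let-7d-3p at 0.78 (adjusted p = 0.063). Most like miR-365-3p were the muscle miRNA miR-1a-3p (0.263), let-7f-5p (0.279) and miR-98-5p (0.287), against a median of 0.828. All of these fell in Exe BAT. miR-1a-3p had 6593, 6972 and 4753 CPM in Exe BAT, against 13838, 24119 and 12836 CPM in Sed BAT (-1.47 ± 0.30, SE, adjusted p = 0.0107), with Sed BAT replicate 2 the highest, as for miR-365-3p. The other muscle miRNAs lay above 0, as given with miR-365-3p. let-7f-5p was at -1.07 (adjusted p = 0.0173) and miR-98-5p at -0.93 (adjusted p = 0.036). The compared miRNAs share libraries and scaling, and likeness was measured over the same Exe and Sed libraries. The direction of change of the miRNAs most alike is therefore largely set by the choice and is no separate support.

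Beside the members, 13 other miRNAs known to promote brown fat were listed for BAT or plasma, and 11 of them were tested in BAT. Of these, 2 rose in Exe BAT, miR-328-3p and miR-455-3p, which promotes commitment to brown fat. miR-455-3p averaged 90.3 ± 15.2 CPM in Exe BAT and 30.02 ± 13.0 CPM in Sed BAT (SD, n = 3 each), which is 1.57 ± 0.44 as a log2 fold change (adjusted p = 0.0306). It had only 9, 13 and 17 reads in Exe BAT, against 6, 2 and 4 in Sed BAT. It therefore passed the filter on low counts mainly through the group where it was high. The other arm of that hairpin, miR-455-5p, was at -0.12 and was not called (adjusted p = 0.786). The list's only fall was that of miR-32-5p, which supports thermogenesis in mouse brown fat (-1.35 ± 0.36, SE, adjusted p = 0.0243). The list's median was 0.41, with 6 values above 0 and 5 below. Of 10 tested miRNAs that restrain brown fat, 0 rose and 2 fell, miR-34a-5p (-1.05 ± 0.20, SE, adjusted p = 0.0107) and let-7i-5p (-1.01 ± 0.23, SE, adjusted p = 0.0151), with 5 above 0, 5 below and a median of 0.16. The median over all tested miRNAs was -0.06, and the members are not counted in either list. Beside these list calls, 9.55% of all 199 miRNAs tested in BAT were called higher and 13.1% lower.

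**Figure D5:**
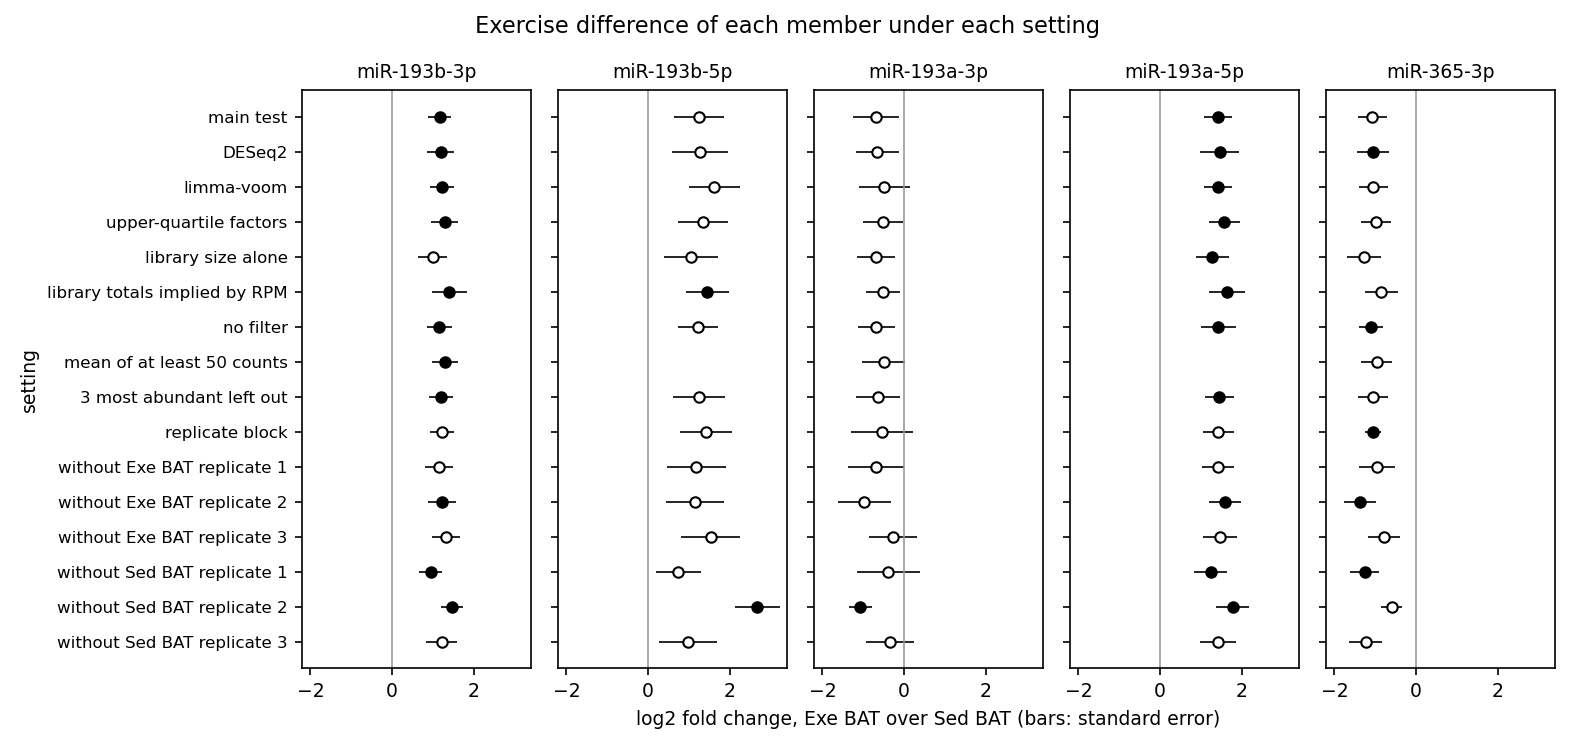
Log2 fold change of Exe BAT over Sed BAT for each member (panels) under each processing setting (lines), with bars for the standard error and filled points where the adjusted p was under 0.05. The sign of each member's value is the same in every setting in which it could be tested, whereas its side of the threshold varies: miR-193b-5p and miR-193a-3p are filled without Sed BAT replicate 2, where miR-365-3p is at -0.60.

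In plasma vesicles the members were near the limit of detection in spite of the greater depth. miR-193b-3p had 0 and 0 reads in Exe plasma, against 13 and 37 in Sed plasma. miR-365-3p had 3 and 0 reads in Exe plasma, against 0 and 36 in Sed plasma. miR-193a-5p had 0 and 0 reads in Exe plasma, against 0 and 20 in Sed plasma, where the deposited second value for the 20 reads was 1. For the 13 and 37 reads of miR-193b-3p the second values were 6 and 17, and for the 36 reads of miR-365-3p it was 4. miR-193a-3p had 1 read in all, in Sed plasma replicate 2, and miR-193b-5p had 1 read in all, in Exe plasma replicate 1. So only miR-193b-3p was found in both libraries of a group.

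With 2975186 miRNA reads in the Exe plasma libraries together, 0 reads allow up to 1.01 uncorrected CPM (3 counts over the group). Against that floor miR-193b-3p, at 15.9 uncorrected CPM in Sed plasma, was at least 15.8-fold lower in Exe plasma by library totals and at least 23.2-fold lower on the TMM scale. These bounds cover counting error of the 0 reads only. The Sed plasma reads are taken as counted, and spread between libraries is not covered. Of the members, 1 of 5 passed the filter on low counts in plasma, miR-193b-3p, through its Sed libraries alone. It was not called (edgeR adjusted p = 0.0899, n = 2 per group, 0.0274 to 0.308 over the alternatives), and of all 182 plasma miRNAs 0% were called by edgeR, with 60 at an unadjusted p under 0.05, 59 called by DESeq2 and 40 by limma-voom. Non-overlapping groups lower in Exe plasma made up 30.8% of them.

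The Exe and Sed plasma libraries also differed in the red cell miRNAs, which took 12.5% to 14.0% of reads in Exe plasma and 52.8% to 70.0% in Sed plasma, and in the deposited second values, which summed to 71.0% and 61.1% of the reads in Exe plasma, against 30.2% and 4.67% in Sed plasma. Their part in the values of the members was not tested. The list of 5 other brown fat miRNAs also took a small share of plasma reads, but the brown fat promoting list was mixed. In that list miR-26a-5p averaged 10200 CPM in Exe plasma and 7840 CPM in Sed plasma, while miR-196a-5p averaged 0 and 85.1 CPM. The list of 5 took 0.0266% to 0.149% of reads in Exe plasma, with miR-455-3p and miR-182-5p at 0, and 0.172% to 0.508% in Sed plasma, with miR-455-3p at 0. Of the brown fat promoting list 0 of 9 tested miRNAs and of the restraining list 0 of 7 were called in plasma, with medians of 0.38 and 0.39, against 0.32 for all tested.

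Compared between sources, the members were far more abundant in BAT vesicles than in plasma vesicles. In Exe libraries, miR-193b-3p had 20889 uncorrected CPM in BAT and 0 in plasma, at least 20716-fold higher in BAT, and miR-193a-3p had 2337 and 0, at least 2317-fold higher. Both bounds cover counting error of the 0 plasma reads only, with the BAT reads taken as counted and pooled over libraries. miR-365-3p had 2938 uncorrected CPM in Exe BAT and 1.01 in Exe plasma, a ratio of 2913 (exact 95% counting interval 995 to 14145). In Sed libraries, miR-193b-3p had 9820.5 uncorrected CPM in BAT and 15.9 in plasma, a ratio of 617 (467 to 832), and miR-365-3p had 6588 and 11.5, a ratio of 575 (414 to 822). All 36 of its Sed plasma reads came from replicate 2, with 0 in replicate 1, a spread that the counting interval does not cover. For miR-193a-5p the Sed ratio was lower, at 12.5 (6.90 to 23.1), from 79.6 uncorrected CPM in BAT and 6.37 in plasma, since a single plasma library held 20 reads of it.

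In a joint edgeR fit of all 10 libraries over miRNAs in both tables, with members of fewer than 10 plasma reads left out, miR-193b-3p (adjusted p = 0.000226) and miR-365-3p (adjusted p = 0.0117) were called higher in Sed BAT than in Sed plasma, where 22.2% of 234 tested miRNAs were called higher, 20.1% lower and 42.3% in either direction. miR-193a-5p was not called there (log2 fold change 1.18, adjusted p = 0.474). Without Sed plasma replicate 2, the library with all of its plasma reads, its log2 fold change was 7.36, a rise set by that removal. All 3 were called higher in Exe BAT than in Exe plasma, beside 41% of all tested higher, 25.6% lower and 66.7% in either direction. Since Exe plasma held 0 reads of miR-193b-3p, 3 of miR-365-3p and 0 of miR-193a-5p, these calls add nothing to the bounds and ratios given above. Vesicle source and table coincide here, as would a batch of sequencing, so that their parts in these values cannot be told apart.

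The difference between Exe and Sed was itself unlike between BAT and plasma for miR-193b-3p, which was higher in Exe BAT than in Sed BAT and at 0 in Exe plasma beside 50 reads in Sed plasma (joint edgeR fit, adjusted p = 0.00264). Among all tested miRNAs, 16.7% were called with a difference in this direction, 12.4% in the other and 29.1% in either. This call held in each of the 18 alternatives run, with an adjusted p of at most 0.0288. All of them use the same 0 reads in Exe plasma, so their agreement is not independent support. In plasma alone the difference was not called (edgeR adjusted p = 0.0899). For miR-193a-5p the adjusted p was 0.0322, resting on the 20 reads of 1 plasma library, and without that library it was 1.0. miR-365-3p was not called (adjusted p = 0.265).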

How the data were processed

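Small RNA of vesicles was sequenced from 6 BAT and 4 plasma libraries, grouped by their titles. The authors deposited read counts per mature miRNA, 1 table per source, with RPM beside them for BAT and a further whole number beside each plasma count, treated as a score, whose making is not given in the sources used here. Bowtie 0.12.2, mm8 and mm9 appear without a role in the submitters' processing notes. RNA was extracted with Trizol, per the labels' protocols.

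Counts were tested as deposited with edgeR 4.0.16 (R 4.3.3; quasi-likelihood, TMM, filterByExpr, robust) over all miRNAs of a table, with Benjamini-Hochberg adjustment and a threshold of 0.05. Standard errors are the log2 fold change over the square root of F. A joint fit of the 4 groups covered miRNAs in both tables. The limit of 10 plasma reads for members in that fit was set after seeing the data. Ratios used a pseudocount of 0.5 and exact permutation tests (scipy 1.17.1), and were not tested in plasma, where a library had fewer than 10 reads for each pair. Alternatives were DESeq2 1.42.0, limma-voom (limma 3.58.1), upper-quartile factors, library size alone, the totals implied by RPM, other filters, the replicate block, the 3 most abundant miRNAs left out, the second plasma values and each library left out. Intervals and floors cover counting error only, as PCR copies are not independent. Named miRNAs are the members, the miR-365 5p arms, the 3 most alike (mean of at least 100 counts, prior count 2) and list members past the threshold. Members and lists were chosen with earlier results of these data known. The scripts were tested on simulated data.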

Additional observations from a re-analysis of the deposited data

Results flagged for a closer look

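For 2 members the exercise difference in BAT vesicles was not the same as that in plasma vesicles when all 10 libraries were fitted jointly in edgeR. miR-193b-3p had 9351 reads in Exe BAT and 3825 in Sed BAT, but 0 in Exe plasma and 50 in Sed plasma (adjusted p of the difference = 0.00264, 0.0288 at most over 18 alternatives). All the alternatives use the same 0 reads in Exe plasma. For miR-193a-5p the reads were 90 in Exe BAT and 31 in Sed BAT, with 0 in Exe plasma and 20 in Sed plasma (adjusted p of the difference = 0.0322). All 20 of the plasma reads came from Sed plasma replicate 2, and the call was lost in 8 of the 10 fits with a library left out, with limma-voom (adjusted p = 0.0809) and with no filter (adjusted p = 0.0547), over a range of adjusted p from 0.000605 to 1.0. Red cell miRNAs were at 12.5% to 14.0% of reads in Exe plasma and 52.8% to 70.0% in Sed plasma, and their part in these differences was not tested.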

How the results depend on the processing

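All 5 members kept their direction in BAT wherever an alternative could test them, and so did the 4 ratios. Scaling by upper-quartile factors moved the median of all tested BAT miRNAs by 0.14 on the log2 scale, the totals implied by RPM by 0.17 and library size alone by -0.13. Relative to these shifts miR-193b-3p was at 1.15, 1.24 and 1.13. The 45 BAT calls, 19 higher and 26 lower, became 26 and 20 with upper-quartile factors and 22 and 13 with the totals implied by RPM. They numbered 21 with a mean of at least 50 counts, where neither 5p member could be tested, 25 with the replicate block and 16 to 56 with a library left out. Log2 fold changes with a library left out were 0.94 to 1.47 for miR-193b-3p, 1.24 to 1.78 for miR-193a-5p, 0.74 to 2.68 for miR-193b-5p, -1.07 to -0.27 for miR-193a-3p and -1.37 to -0.60 for miR-365-3p. Calls were lost for miR-193b-3p with library size alone (0.99) and gained for miR-193b-5p with the totals implied by RPM (1.45) and for miR-365-3p with DESeq2 (-1.05) and no filter (-1.10). The cause was not tested.

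Replicate numbers did not pair the libraries: deviations of same-numbered BAT libraries correlated at 0.004, -0.083 and -0.12, and of plasma libraries at -0.076. With the replicate block miR-193b-3p was at 1.22 (adjusted p = 0.0589) and miR-193a-5p at 1.43 (adjusted p = 0.065), both outside the threshold, and miR-365-3p at -1.05 (adjusted p = 0.0406), inside it. The block changed no other call of a member within BAT or plasma, and in the joint fit it ended that of miR-365-3p between Sed BAT and Sed plasma (adjusted p = 0.245).

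In plasma, edgeR's 0 calls became 1 without the 3 most abundant miRNAs, 59 with DESeq2, 40 with limma-voom, 10 with library size alone, 29 with a mean of at least 50 counts, 17 with no filter, 7 with the replicate block, 11 with the second values, 4 with upper-quartile factors and 3 to 27 with a library left out. There miR-193b-3p passed with limma-voom (-6.05), and it could not be tested with a mean of at least 50 counts, with the second values or without Sed plasma replicate 2, while DESeq2 gave it no adjusted p. The plasma median shifted by -0.91 with upper-quartile factors, 0.63 with library size alone and -0.16 with DESeq2. Calls between Sed BAT and Sed plasma, 99 in the main test, were 150 with DESeq2, 152 with library size alone, 54 with the replicate block and 77 to 149 with a library left out. Those between Exe BAT and Exe plasma, 156, were 103 with the replicate block and 82 with a mean of at least 50 counts. The 68 differences between sources were 45 with the block and 36 to 119 with a library left out. The difference for miR-365-3p turned to -3.89 without Sed plasma replicate 2, which held all 36 of its Sed plasma reads, within a range of -3.89 to 5.74. Ratios in plasma were not run, for want of reads, nor were the second plasma values in the joint fit. The 5p members had 14 to 37 reads per library in Exe BAT and 2 to 15 in Sed BAT.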
